A study of Mus musculus with 2 samples.

Results

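The 7 Wnt ligand genes *Wnt2*, *Wnt2b*, *Wnt4*, *Wnt5a*, *Wnt5b*, *Wnt9a* and *Wnt11* were followed across the cells of the intestinal lamina propria. They are 7 of the 19 mouse Wnt ligand genes, all of which are among the 31053 genes counted, and they were listed by name and not by a measured value. Each genotype has 1 scRNA-seq library of sorted cells from C57BL/6 mice, given as 11 weeks old in the labels. The library called ApcMin came from ApcMin/+;Lef1 +/+ mice, and the library called VApcMinL from ApcMin/+;Lef1 fl/fl; Villin-Cre mice. Both genotypes therefore carry the ApcMin allele, a truncating mutation of the tumor suppressor *Apc*, and in VApcMinL the Villin promoter drives Cre in the intestinal epithelium, so that *Lef1* is deleted there and not in the stromal cells described here. The lamina propria was digested with EDTA and the enzyme mix Liberase TL, and live cells that lacked Ter119, EpCAM and CD45, surface proteins of red blood cells, epithelium and leukocytes, were sorted. How many mice were pooled for a library is not given in the sources used here.

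Wnt ligands are secreted glycoproteins that carry a lipid, which the enzyme Porcn attaches, and that reach the cell surface with the carrier protein Wls. Canonical ligands bind Frizzled receptors and the co-receptors Lrp5 and Lrp6 and stabilise β-catenin, which acts on target genes together with factors of the Tcf and Lef family, whereas *Wnt5a*, *Wnt5b* and *Wnt11* are best known for signalling through Ror and Ryk receptors without β-catenin. In the intestine, mesenchymal cells around the crypts supply Wnt ligands and R-spondins to the epithelial stem cells.

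The libraries held 93203061 UMIs (unique molecular identifiers, 1 for each captured RNA molecule) in ApcMin and 101609269 in VApcMinL. Barcodes with at least 3000 UMIs and at most 20% mitochondrial UMIs were taken as cells, and after suspected doublets were left out, 6251 ApcMin cells with a median of 10709 UMIs and 6224 VApcMinL cells with a median of 8932 UMIs remained. Of the barcodes that met the rule, 18 occurred in both libraries. The cells fell into 18 clusters, formed without 68 Wnt pathway genes, all 19 ligands among them, so that no ligand shaped the clusters it is described in. In 6 clusters, 11 or 12 of 12 fibroblast markers such as *Pdgfra*, *Dcn* and *Col1a1* reached at least 25% of cells. These clusters, with 3195 ApcMin and 3563 VApcMinL cells, are called fibroblast-like. They are the *Pi16* *Has1* cluster, the *Penk* *Lpl* cluster and the *Scg2* *Thbs2* cluster, called by their leading genes, and clusters that resembled *Adamdec1* fibroblasts, trophocytes (*Grem1*, *Ackr4*) and subepithelial telocytes (*Bmp5*, *Bmp7*). Lymphatic endothelial-like (33 and 153 cells), blood endothelial-like (102 and 453), mesothelial-like (7 and 35), glial or neuronal-like (23 and 160) and myeloid-like (253 and 217) clusters were also present. The sort should have removed the myeloid-like cells, as well as the erythroid-like (1363 and 361), B cell-like (647 and 347), plasma cell-like (456 and 527), T cell or ILC-like (101 and 66) and epithelial-like (26 and 280) cells that were found.

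Levels are given as CPM, the UMIs of a gene per 1000000 UMIs of the cluster, first for ApcMin and then for VApcMinL. Because each molecule gives 1 tag from its 3′ end, CPM does not depend on gene length, but genes can differ in how well they are captured. Values in parentheses are exact 95% intervals, which hold the error of counting and nothing else. No test was possible, since neither genotype has a replicate library, and what differs between ApcMin and VApcMinL may equally be a difference of mice, dissection or sort, which cannot be told apart. Within a cluster, fewer cells that express a gene and less RNA of it per cell cannot be told apart by CPM either.

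In GRCm38, *Wnt2* (ENSMUSG00000010797) lies on chromosome 6 from 17988940 to 18030585, *Wnt2b* (ENSMUSG00000027840) on chromosome 3 from 104945272 to 104961921, and *Wnt5b* (ENSMUSG00000030170) on chromosome 6 from 119432531 to 119544347, all on the minus strand. *Wnt4* (ENSMUSG00000036856) lies on chromosome 4 from 137277489 to 137299726, *Wnt5a* (ENSMUSG00000021994) on chromosome 14 from 28504750 to 28527448, *Wnt9a* (ENSMUSG00000000126) on chromosome 11 from 59306928 to 59333552 and *Wnt11* (ENSMUSG00000015957) on chromosome 7 from 98835112 to 98855195, all on the plus strand. *Wnt5a* overlaps *Gm2670* and *Wnt5b* overlaps *Fbxl14*, both counted genes on the opposite strand.

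As a description, the start regions of the ligands were searched for the Tcf/Lef core CTTTGA on both strands (TCAAAG where it lies on the other strand). *Lef1* is not deleted in the stromal cells, and no link of a match to the deletion was tested. RefSeq windows of 300 bases (250 before and 50 after a start, GRCm38.p6) were at hand for 6 of the 7 ligands, 9 windows in all, and none for *Wnt5a*. The core was found in 2 of these 9 windows, 1 of *Wnt11* and 1 of the internal start of *Wnt5b*, and in 5257, or 16.003%, of all 32851 windows. The 250 bases before these starts are shown with the core in capitals, on the strand of the gene, beside those of *Wnt9a*, whose window held no match. They lie at chr7:98834862-98835111 (plus strand), chr6:119449387-119449636 (minus strand) and chr11:59306680-59306929 (plus strand). A match of 6 letters is a description and no binding site.
Wnt11: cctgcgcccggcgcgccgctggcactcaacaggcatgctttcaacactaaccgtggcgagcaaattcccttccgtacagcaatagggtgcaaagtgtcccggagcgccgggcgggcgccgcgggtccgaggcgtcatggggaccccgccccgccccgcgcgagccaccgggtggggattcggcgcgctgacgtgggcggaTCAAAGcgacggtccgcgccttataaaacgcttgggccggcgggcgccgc
Wnt5b: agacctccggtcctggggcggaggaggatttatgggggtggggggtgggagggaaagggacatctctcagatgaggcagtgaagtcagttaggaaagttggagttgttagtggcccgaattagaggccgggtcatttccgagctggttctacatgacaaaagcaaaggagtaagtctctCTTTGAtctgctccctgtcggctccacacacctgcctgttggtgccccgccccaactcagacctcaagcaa
Wnt9a: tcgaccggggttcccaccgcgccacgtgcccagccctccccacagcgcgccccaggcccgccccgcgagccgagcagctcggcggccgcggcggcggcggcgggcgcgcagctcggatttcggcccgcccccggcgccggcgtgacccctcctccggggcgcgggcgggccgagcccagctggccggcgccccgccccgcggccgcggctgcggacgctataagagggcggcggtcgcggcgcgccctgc

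Each ligand had its own distribution over the stroma. *Wnt5a* was the most abundant, at 140 CPM (137 to 144) in ApcMin and 96.7 CPM (93.6 to 99.8) in VApcMinL over all fibroblast-like cells. The other 6 ligands lay between 1.82 CPM (*Wnt2*) and 18.7 CPM (*Wnt4*) in ApcMin and between 0.885 CPM (*Wnt2*) and 39.1 CPM (*Wnt4*) in VApcMinL. Fibroblast-like cells, which made up 51.1% of the ApcMin and 57.2% of the VApcMinL cells, held at least 89.3% of the UMIs of 5 ligands in both libraries. The share was 99.3% (98.2 to 99.8%) and 96.8% (95.1 to 98.0%) for *Wnt2b*, 97.8% and 92.3% for *Wnt9a*, 97.6% and 94.5% for *Wnt5b*, 97.0% and 91.8% for *Wnt11*, and 95.5% and 89.3% for *Wnt5a*. The exceptions were *Wnt4*, with 65.7% (63.0 to 68.3%) and 87.4% (85.7 to 88.9%), and *Wnt2*, with 67.2% (58.0 to 75.6%) and 24.8% (17.9 to 32.8%). Such a share depends on the number of cells of each kind as well as on the level in them.

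**Figure D1:**
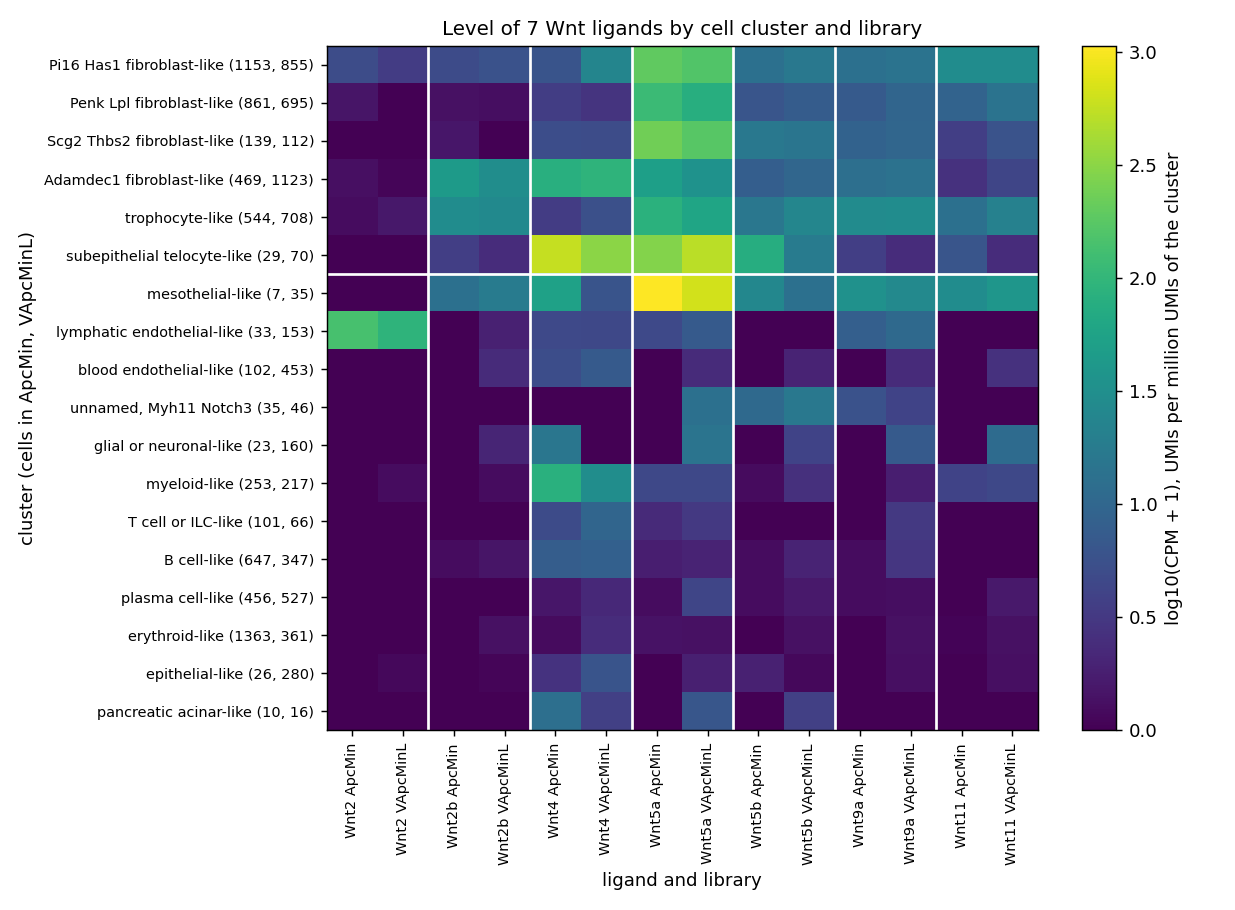
Level of each ligand in each cluster and library, as the colour of log10(CPM + 1). Rows are clusters with their cells per library, the 6 fibroblast-like clusters above the white line. *Wnt2* stands out in lymphatic endothelial-like cells (140 and 91.0 CPM), *Wnt4* in telocyte-like cells (571 and 313 CPM) and *Wnt5a* in mesothelial-like cells (1065 and 664 CPM).

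**Figure D2:**
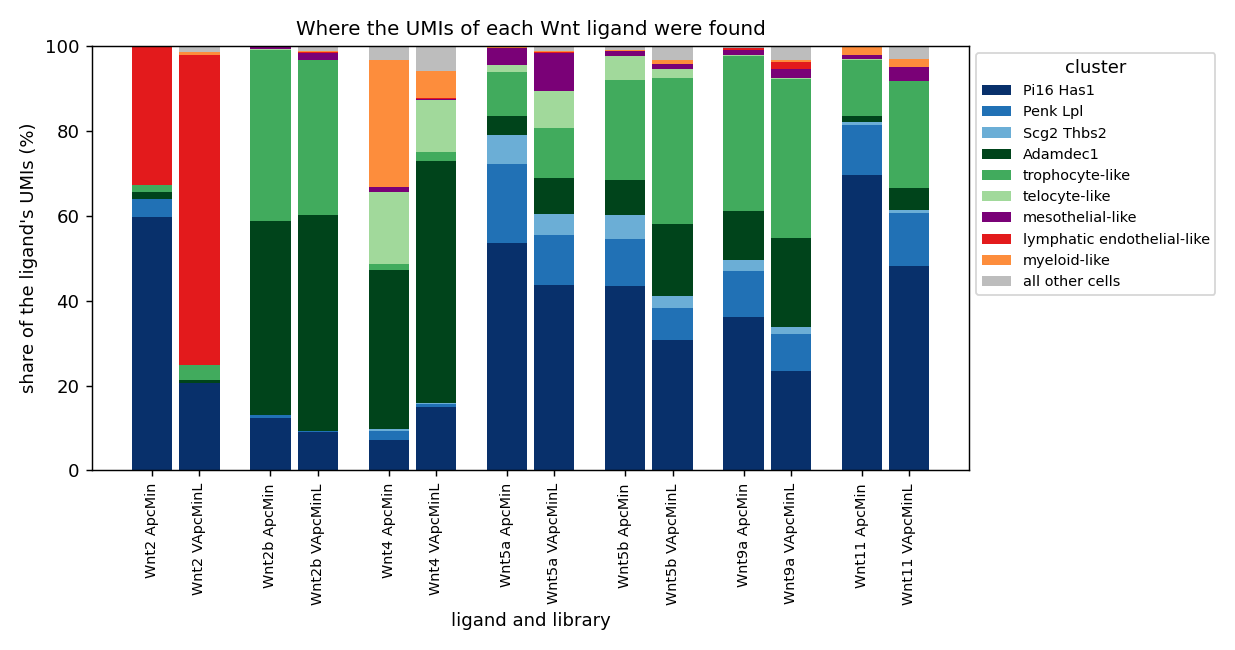
Share of each ligand's UMIs (%) that lay in each cluster, by library, with the blue and green clusters fibroblast-like. *Wnt2* has a lymphatic endothelial-like share of 32.8% in ApcMin and 73.0% in VApcMinL, and *Wnt4* a myeloid-like share of 29.95% and 6.28%. Shares depend on cell numbers as well as on levels. Lymphatic endothelial-like cells were 0.528% and 2.46% of the cells, and myeloid-like cells 4.05% and 3.49%.

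*Wnt2*, a canonical ligand known for its part in lung and vessel development, was highest in lymphatic endothelial-like cells, which carried 8 of 8 lymphatic markers such as *Prox1* and *Lyve1*. These cells held 39 *Wnt2* UMIs in ApcMin, or 140 CPM (99.7 to 192), and 103 in VApcMinL, or 91.0 CPM (74.3 to 110). A UMI was found in 18 of 33 and 60 of 153 cells, and with all cells thinned to 3000 UMIs in 27.3% (13.3 to 45.5%) and 21.6% (15.3 to 28.9%). Blood endothelial-like cells held 0 *Wnt2* UMIs in both libraries, in 102 and 453 cells, which allows up to 4.19 and 1.02 CPM (3 counts). The same held for plasma cell-like and erythroid-like cells, which should lack the gene and serve as the background for free RNA.

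Outside lymphatic cells, *Wnt2* was found mainly in the *Pi16* *Has1* cluster, at 4.02 CPM (3.14 to 5.07) and 2.49 CPM (1.66 to 3.57). In this cluster, 47 of 1153 and 21 of 855 cells had a UMI, and 10 cells held 47.9% and 62.1% of the UMIs. At a finer clustering, the cells with the most adventitial markers (*Pi16*, *Dpp4*, *Cd55*), 343 and 188 in number, had 6.19 CPM (4.36 to 8.53) and 8.29 CPM (5.19 to 12.6), intervals that overlap. The other fibroblast-like clusters had 0 to 5 *Wnt2* UMIs each, which is at most 0.581 CPM.

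*Wnt2b*, a canonical ligand that supports intestinal stem cells, had 2 sources. *Adamdec1* fibroblast-like cells were at 44.2 CPM (39.0 to 49.9) and 29.2 CPM (26.1 to 32.6), and trophocyte-like cells at 29.1 CPM (25.4 to 33.1) and 26.3 CPM (22.9 to 29.9). The order of these clusters was the same in both libraries, but in VApcMinL their intervals overlapped. At 3000 UMIs per cell, a *Wnt2b* UMI was found in 10.2% and 7.30% of *Adamdec1* fibroblast-like cells and in 9.38% and 8.62% of trophocyte-like cells, against 0% in plasma cell-like and at most 0.277% in erythroid-like cells. Mesothelial-like cells had 3 and 10 UMIs, or 12.2 and 17.1 CPM. The *Pi16* *Has1* cluster followed at 3.91 CPM (3.04 to 4.94) and 4.799 CPM (3.63 to 6.23), and the *Penk* *Lpl* and *Scg2* *Thbs2* clusters had at most 0.529 CPM.

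*Wnt9a*, a canonical ligand known from joint formation, was highest in trophocyte-like cells among the fibroblast-like clusters, at 27.7 CPM (24.1 to 31.6) and 28.9 CPM (25.4 to 32.8). The *Pi16* *Has1* cluster had 12.2 and 13.4 CPM and *Adamdec1* fibroblast-like cells 11.9 and 12.9 CPM, and these clusters did not differ beyond their counting error. Mesothelial-like cells had 8 and 15 UMIs, or 32.6 and 25.6 CPM. Trophocyte-like cells were thus high in both *Wnt2b* and *Wnt9a*. At 3000 UMIs per cell, 5 of 51 and 5 of 61 cells with *Wnt2b* also had *Wnt9a*, or 9.80% and 8.20%, against 7.71% and 8.81% of the cells without *Wnt2b*.

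*Wnt4*, a ligand known from kidney and gonad development, was highest in subepithelial telocyte-like cells, a rare class of 29 and 70 cells that carried 9 of 11 telocyte markers. Of the same marker list, *Itgbl1* had 0 UMIs in this class in both libraries, and *Foxl1* had 12 and 24. Telocyte-like cells had 213 *Wnt4* UMIs in ApcMin, or 571 CPM (497 to 654), and 219 in VApcMinL, or 313 CPM (273 to 357). A UMI was found in 28 of 29 and 55 of 70 cells, and at 3000 UMIs per cell in 79.3% (60.3 to 92.0%) and 55.7% (43.3 to 67.6%). Plasma cell-like cells, with 0.219% and 0.190%, and erythroid-like cells, with 0.0734% and 0.831%, had far lower shares. B cell-like cells, which the sort should also have removed, had 2.78% (18 of 647 cells) and 1.73% (6 of 347), or 6.78 and 7.49 CPM. The *Pi16* *Has1* cluster of ApcMin, at 1.39% and 5.04 CPM, was not above these B cell-like levels.

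*Adamdec1* fibroblast-like cells came next among the fibroblasts, with 80.3 CPM (73.2 to 87.9) and 93.4 CPM (87.7 to 99.4) of *Wnt4*, and they were not uniform. At the finer clustering they parted into a group led by *Cxcl13* and *Ereg*, with 365 and 803 cells, and one led by *Mmp10*, *Fgfr2* and *Col6a5*, with 99 and 301 cells. The latter had 352 CPM (318 to 388) and 272 CPM (254 to 291) of *Wnt4*, the former 13.4 CPM (10.3 to 17.2) and 22.1 CPM (18.9 to 25.8). *Wnt2b* had the opposite order, at 20.1 and 11.5 CPM in the *Mmp10* group and 50.4 and 36.8 CPM in the *Cxcl13* group. Within the *Adamdec1* fibroblast-like cluster, at 3000 UMIs per cell, *Wnt4* was found in 3 of 48 and 5 of 82 cells with *Wnt2b*, or 6.25% and 6.10%, and in 15.9% and 17.003% of those without it. *Wnt5a* had the order of *Wnt4*, at 124 and 71.6 CPM in the *Mmp10* group and 31.8 and 17.9 CPM in the *Cxcl13* group. At the same thinned depth it was found in 28.6% and 17.03% of the cells with *Wnt4* and in 11.0% and 6.06% of those without it.

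Myeloid-like cells were a source of *Wnt4* outside the mesenchyme. The cluster had 375 UMIs in 80 of 253 ApcMin cells, or 83.4 CPM (75.2 to 92.3), and 111 UMIs in 38 of 217 VApcMinL cells, or 29.8 CPM (24.5 to 35.9). Free RNA was estimated to supply 4.38 and 5.06 of these UMIs. The cluster was not pure. At the finer clustering, 10 of its ApcMin and 27 of its VApcMinL cells lay with epithelial-like cells, and these large cells, with medians of 84941 and 38503 UMIs, held 25.8% and 46.6% of the cluster's UMIs but 2 and 4 of its *Wnt4* UMIs. In the remaining 243 and 190 cells *Wnt4* was at 112 and 53.8 CPM.

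Most *Wnt4* UMIs of the myeloid-like cells lay in the finer cluster led by *C1qa*, a gene of macrophages, with 369 and 102 UMIs in 75 of 202 and 30 of 129 cells, or 130 CPM (117 to 144) and 65.9 CPM (53.7 to 80.0). At 3000 UMIs per cell, 26.2% (20.3 to 32.9%) and 10.1% (5.48 to 16.6%) of these cells had a *Wnt4* UMI. The 12 fibroblast markers summed to 332 CPM in the ApcMin cells of this group with *Wnt4* and to 364 CPM in those without it, against 40300.3 CPM in *Adamdec1* fibroblast-like cells. In VApcMinL the sums were 314.5 CPM with *Wnt4*, 798 CPM without it and 30487 CPM in *Adamdec1* fibroblast-like cells. *Adamdec1*, which encodes a secreted metalloprotease, was at 1748 and 1584 CPM in the cells of this group with *Wnt4*, at medians of 11913 and 12563 UMIs per cell, and at 235 and 485 CPM in those without it, at 9982 and 9268 UMIs. This split and these genes were chosen after the values were seen.

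**Figure D3:**
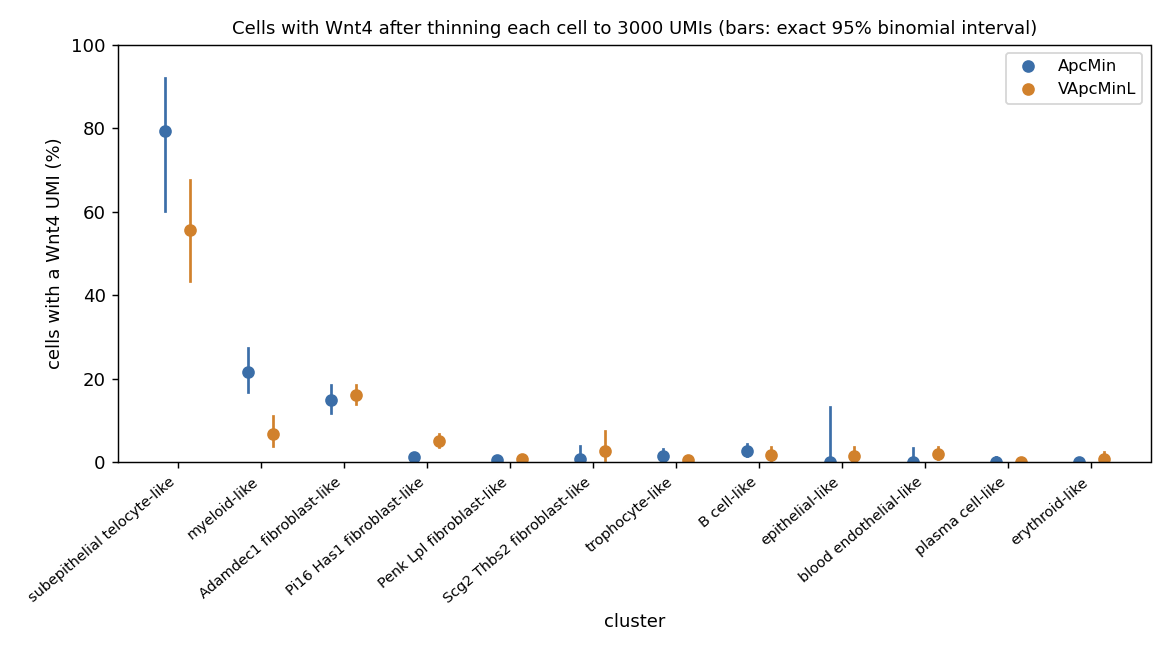
Share of cells (%) with at least 1 *Wnt4* UMI after each cell was thinned to 3000 UMIs, by cluster and library. Points are shares and bars exact 95% binomial intervals. Telocyte-like cells reach 79.3% and 55.7%, the myeloid-like cluster 21.7% and 6.91% and *Adamdec1* fibroblast-like cells 14.9% and 16.2%, whereas plasma cell-like and erythroid-like cells stay at or below 0.831%.

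*Wnt5a*, the best known non-canonical ligand, was found in all 6 fibroblast-like clusters, in a graded order. Telocyte-like cells had 295 CPM (243 to 356) and 522 CPM (470 to 579), the *Scg2* *Thbs2* cluster 233 CPM (212 to 256) and 173 CPM (150 to 198), and the *Pi16* *Has1* cluster 195 CPM (189 to 202) and 160 CPM (153 to 167). The intervals of the first and the second of these overlapped in ApcMin, and those of the second and the third in VApcMinL. The *Penk* *Lpl* cluster followed at 115 and 77.1 CPM, trophocyte-like cells at 85.0 and 59.0 CPM and *Adamdec1* fibroblast-like cells at 49.9 and 33.9 CPM.

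Although its level was highest elsewhere, the *Pi16* *Has1* cluster held the largest share of the *Wnt5a* UMIs of any cluster, 53.6% in ApcMin and 43.6% in VApcMinL. At 3000 UMIs per cell 41.1% and 35.2% of its cells had a *Wnt5a* UMI, against 0.219% and 0.380% of plasma cell-like cells. Mesothelial-like cells, which line the outer surface of the gut, had the highest *Wnt5a* level of all clusters, 1065 CPM (940 to 1202) and 664 CPM (600 to 733), with a UMI in 7 of 7 and 35 of 35 cells. In ApcMin, 116 of the 261 UMIs came from 1 of these 7 cells.

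*Wnt5b*, the close relative of *Wnt5a*, was spread over the fibroblast-like clusters at a lower level. Trophocyte-like cells had 14.9 CPM (12.3 to 17.9) and 23.5 CPM (20.3 to 26.9), and the *Pi16* *Has1* cluster 12.2 and 15.4 CPM. Telocyte-like cells had 28 UMIs in 11 of 29 ApcMin cells, or 75.1 CPM (49.9 to 109), and 12 UMIs in 10 of 70 VApcMinL cells, or 17.1 CPM (8.85 to 29.9). The unnamed cluster led by *Myh11* and *Notch3*, which carries markers of smooth muscle and of pericytes, had 2 and 5 UMIs of *Wnt5b* and 0 of *Wnt2*, *Wnt2b*, *Wnt4* and *Wnt11*.

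*Wnt11*, a non-canonical ligand known from cell movements in development, was highest among the fibroblast-like clusters in the *Pi16* *Has1* cluster, at 28.5 CPM (26.1 to 31.1) and 28.8 CPM (25.8 to 32.0). Trophocyte-like cells had 12.2 CPM (9.92 to 14.9) and 20.3 CPM (17.4 to 23.6) and the *Penk* *Lpl* cluster 8.27 and 13.1 CPM. *Adamdec1* fibroblast-like cells, in contrast to their high *Wnt2b* and *Wnt4*, had 1.72 and 3.35 CPM. In the *Pi16* *Has1* cluster *Wnt11* was found, at 3000 UMIs per cell, in 9.07% and 6.31% of the cells with *Wnt5a* and in 7.51% and 6.68% of those without it. In glial or neuronal-like cells of VApcMinL, 13 *Wnt5a*, 10 *Wnt11* and 6 *Wnt9a* UMIs were counted, and none of these in the 23 ApcMin cells, which allows up to 21.5 CPM (3 counts). In this cluster 9 of 12 fibroblast markers passed the same share of 25%, and their part in these values was not tested.

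Summed over the 7 ligands, telocyte-like cells had 952 and 856 CPM, more than any other fibroblast-like cluster. The *Pi16* *Has1* cluster had 261 and 247 CPM, the *Scg2* *Thbs2* cluster 264 and 205 CPM, *Adamdec1* fibroblast-like cells 195 and 182 CPM, trophocyte-like cells 172 and 163 CPM and the *Penk* *Lpl* cluster 139 and 108 CPM. The clusters differed in which ligand led. *Wnt5a* made up 74.8% and 64.6% of the ligand UMIs in the *Pi16* *Has1* cluster and 83.3% and 71.5% in the *Penk* *Lpl* cluster. *Wnt4* led in *Adamdec1* fibroblast-like cells, with 41.1% and 51.3%. In telocyte-like cells *Wnt4* led in ApcMin, with 213 of 355 UMIs against 110 for *Wnt5a*, and *Wnt5a* in VApcMinL, with 366 of 600 UMIs against 219 for *Wnt4*. At least 2 of the ligands were found in 25 of 29 and 56 of 70 telocyte-like cells, the highest share of the fibroblast-like clusters, and at 3000 UMIs per cell in 31.03% and 45.7%.

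**Figure D4:**
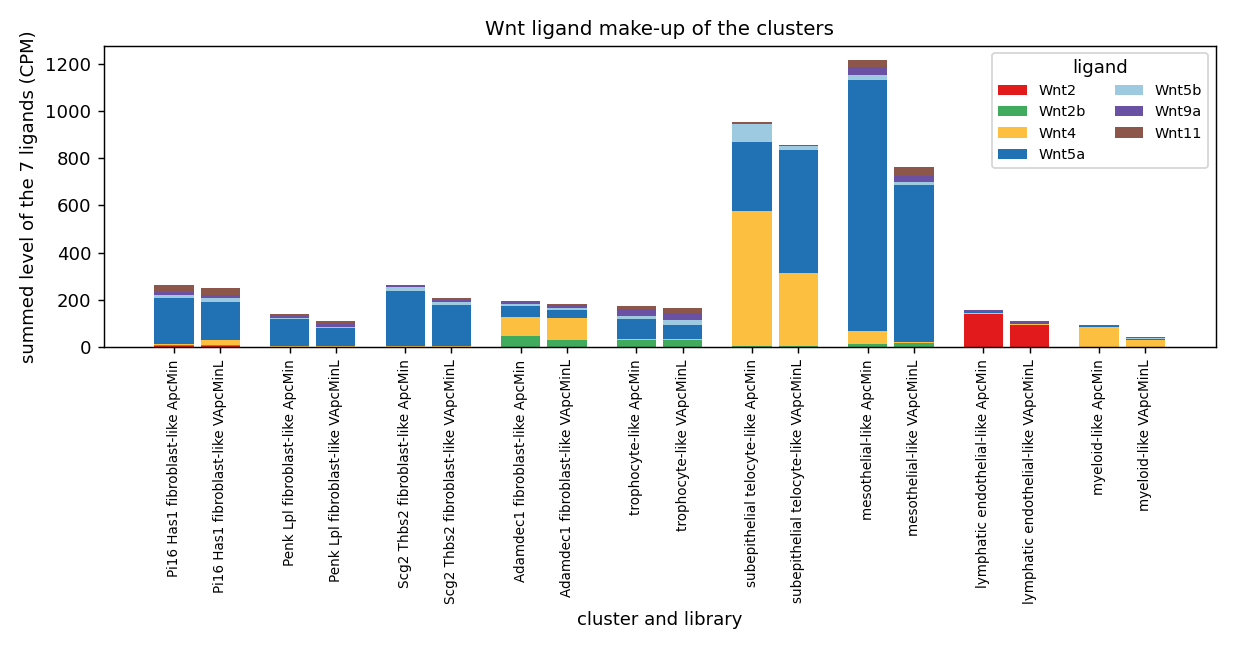
Summed level (CPM) of the 7 ligands in 9 clusters and both libraries, with each ligand as a coloured segment. Mesothelial-like (1216 and 761 CPM) and telocyte-like (952 and 856 CPM) bars are the tallest, *Wnt2* fills the lymphatic endothelial-like bars and *Wnt4* most of the myeloid-like ones.

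The genes whose pattern was most like that of each ligand were taken from the correlation of log2(CPM + 1) over 33 sums of a cluster in a library with at least 20 cells each, among 13499 genes. These points share libraries and cells, so the values of r are descriptions. *Wnt2* was most like *Ackr2* (r = 0.98), a chemokine-scavenging receptor of lymphatic endothelium, *Gm21541* (0.95) and *Nts* (0.92), which encodes neurotensin. *Wnt2b* was most like *Serpina3m* (0.92), *Cpz* (0.86), whose product can process Wnt ligands, and *2410004I01Rik* (0.85). *Wnt4* was most like *Nrg1* (0.89), which encodes an ErbB ligand, *Adamdec1* (0.80) and *Col6a4* (0.80). *Wnt5a* was most like *Chrd* (0.95), which encodes the BMP antagonist chordin, *Gm15867* (0.94) and *Aldh1a2* (0.93), an enzyme of retinoic acid synthesis. *Wnt5b* was most like *Pde1a* (0.95), *Gli2* (0.92), a factor of the hedgehog pathway, and *Fzd2* (0.92), a Frizzled receptor. *Wnt9a* was most like *Foxp2* (0.92), *Osr1* (0.89) and *Abi3bp* (0.89), and *Wnt11* was most like *Best1* (0.89), *Glt8d2* (0.88) and *Fgf18* (0.86). Among the ligands themselves, *Wnt5a* and *Wnt5b* were most alike (0.84), and *Wnt2* was not above 0.31 with any of the others.

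Between the libraries, the pooled fibroblast-like cells differed most in *Wnt4* and *Wnt2*. *Wnt4* had 822 UMIs, or 18.7 CPM, in ApcMin and 1544 UMIs, or 39.1 CPM, in VApcMinL, a ratio of 2.09 (1.92 to 2.28). *Wnt2* had 80 UMIs, or 1.82 CPM, and 35 UMIs, or 0.885 CPM, a ratio of 0.487 (0.317 to 0.733). A ratio of at least 2 in either direction, with an interval that leaves out 1, was thus met by 2 of the 7 ligands, and by 6.96% of the 14099 genes with at least 50 UMIs in these cells. *Wnt5a* was lower in VApcMinL, with a ratio of 0.690 (0.663 to 0.719). *Wnt5b*, at 1.27 (1.12 to 1.43), *Wnt2b*, at 1.19 (1.06 to 1.34), and *Wnt9a*, at 1.17 (1.05 to 1.32), were slightly higher, and *Wnt11*, at 1.01 (0.909 to 1.13), could not be told from no difference. The median log2 ratio was 0.026 over all genes tested.

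These pooled ratios moved with the make-up of the fibroblast-like cells. *Adamdec1* fibroblast-like cells numbered 469 in ApcMin and 1123 in VApcMinL, and the *Pi16* *Has1* cluster 1153 and 855. When each cluster was given the same weight in both libraries, the *Wnt4* ratio was 1.21, below the fold of 2, and the *Wnt2b* ratio was 0.794, on the other side of 1. *Wnt2* was then at 0.618, which does not reach the fold of 2 either, *Wnt5a* at 0.788 and *Wnt11* at 1.21.

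Within clusters, *Wnt5a* was lower in VApcMinL in 5 of the 6 fibroblast-like clusters, with ratios of 0.818 (0.773 to 0.865) in the *Pi16* *Has1* cluster, 0.668 (0.601 to 0.742) in the *Penk* *Lpl* cluster, 0.679 (0.580 to 0.795) in *Adamdec1* fibroblast-like cells, 0.694 (0.617 to 0.780) in trophocyte-like cells and 0.740 (0.625 to 0.874) in the *Scg2* *Thbs2* cluster. Telocyte-like cells had the opposite direction, 1.77 (1.43 to 2.21), while their *Wnt4* ratio was 0.547 (0.451 to 0.664). The finer groups of the *Pi16* *Has1* cluster were not alike in *Wnt5a*. Its ratio was 0.744 (0.694 to 0.797) in the group led by *Has1* and 1.08 (0.965 to 1.21) in the adventitial-marker group. In the group led by *Wif1* and *Itgbl1*, described below, it was 3.13 (1.82 to 5.83), on 14 and 194 UMIs. *Wnt4* in *Adamdec1* fibroblast-like cells had a ratio of 1.16 (1.04 to 1.30), but its finer groups went opposite ways. It was 0.774 (0.686 to 0.874) in the *Mmp10* group, which held most of the *Wnt4* UMIs and made up 99 of 469 and 301 of 1123 cells, and 1.65 (1.23 to 2.25) in the *Cxcl13* group. *Wnt2b* had a ratio of 0.661 (0.559 to 0.783) in the *Adamdec1* fibroblast-like cells. *Wnt11* was at 1.01 (0.877 to 1.16) in the *Pi16* *Has1* cluster and at 1.66 (1.29 to 2.15) in trophocyte-like cells. No ligand with at least 50 UMIs passed the fold of 2 in telocyte-like, *Adamdec1* fibroblast-like, *Penk* *Lpl* and trophocyte-like cells, where 13.5%, 4.01%, 2.82% and 2.13% of the genes did. In a finer group of the trophocyte-like cells, led by *Grem1* and *Tnfaip6*, *Wnt5a* had 136 and 100 UMIs and a ratio of 0.487 (0.373 to 0.636). In the *Mmp10* group of the *Adamdec1* fibroblast-like cells *Wnt5b* had 11 and 65 UMIs and a ratio of 2.22 (1.16 to 4.67). These finer ratios are given because they pass the fold, which *Wnt4*, at 2.89 (1.68 to 5.39), and *Wnt5a* also passed in the *Wif1* group. The share of all genes that pass it was not computed for the finer groups.

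**Figure D5:**
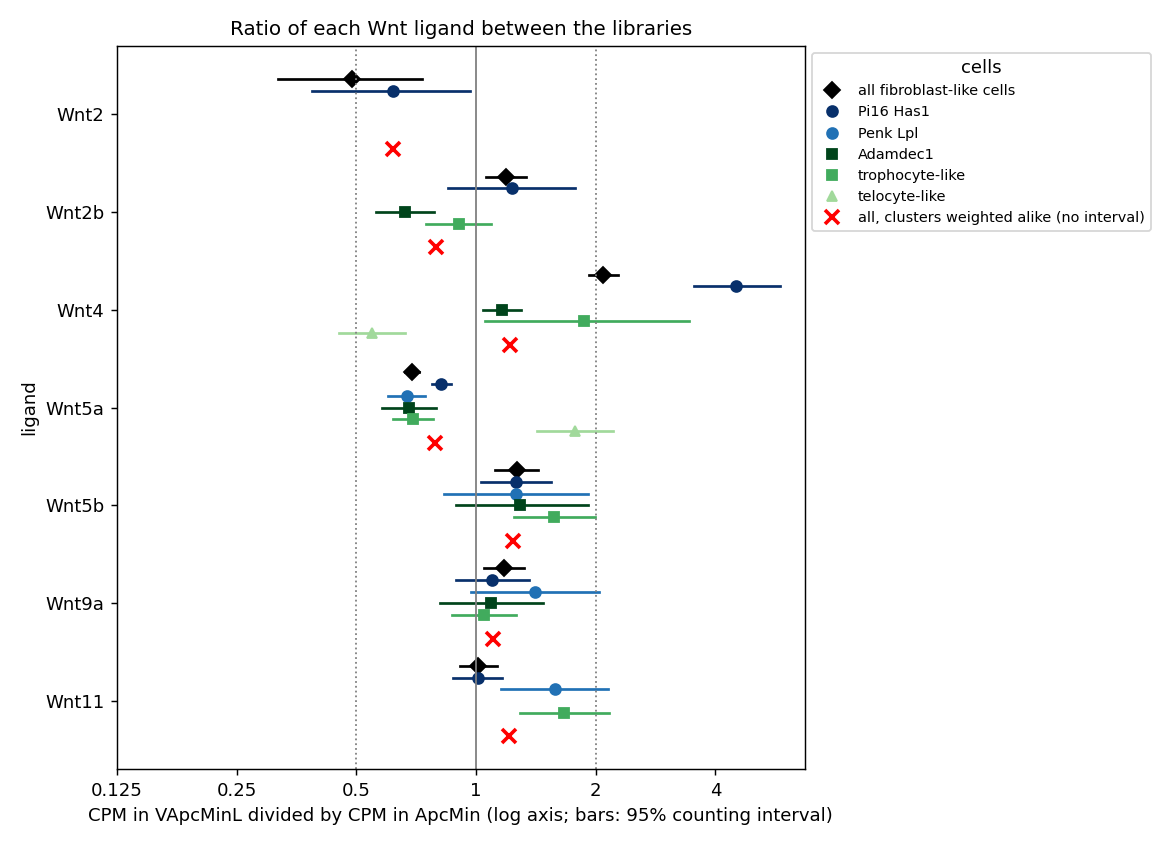
Ratio of CPM in VApcMinL to CPM in ApcMin (log axis) for each ligand in all fibroblast-like cells and in single clusters with at least 50 UMIs, with 95% counting intervals, and dotted lines at folds of 2. Red crosses give the pooled ratio with clusters weighted alike, which moves *Wnt4* from 2.09 to 1.21 and *Wnt2b* from 1.19 to 0.794.

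Among single clusters with at least 50 UMIs of a ligand, the ratio farthest from 1 was that of *Wnt4* in the *Pi16* *Has1* cluster, with 89 UMIs, or 5.04 CPM, in ApcMin and 265 UMIs, or 22.7 CPM, in VApcMinL, a ratio of 4.51 (3.53 to 5.80). It was the only 1 of the 7 ligands past the fold of 2 there, and 5.48% of the genes were. Of these UMIs, 14 and 179 came from a finer cluster of 23 and 114 cells led by *Wif1* and *Itgbl1*. *Wif1* encodes a secreted protein that binds Wnt ligands. In these cells *Wnt4* had a level of 39.2 CPM (21.5 to 65.8) in ApcMin and 113 CPM (97.3 to 131) in VApcMinL. *Wnt5a*, with the same 14 UMIs in ApcMin, had 123 CPM (106 to 141) in VApcMinL. In ApcMin, 13 of the 14 *Wnt4* UMIs came from 1 cell. *Wif1* itself was at 11.2 and 1034 CPM, whereas *Itgbl1*, at 460 and 332 CPM, and *Ntrk2*, at 493 and 495 CPM, were closer. *Nrg1*, at 5.61 and 231 CPM, and *Pi16*, at 174 and 77.9 CPM, differed as well. Whether the 23 and 114 cells are of the same kind was not tested. In the larger finer cluster led by *Has1*, of 792 and 557 cells, *Wnt4* was at 5.52 and 10.9 CPM, a ratio of 1.97 (1.40 to 2.79).

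In myeloid-like cells *Wnt4* had a ratio of 0.357 (0.287 to 0.443), past the fold of 2, as were 8.42% of the genes with at least 50 UMIs in that cluster. No other of the 7 ligands had 50 UMIs there. Without the 10 and 27 cells that lay with epithelial-like cells at the finer clustering, an alternative chosen after the data were seen, the ratio was 0.481 (0.385 to 0.598). Within the *C1qa* group alone it was 0.506 (0.402 to 0.631), short of the fold of 2. *Wnt2* in lymphatic endothelial-like cells had a ratio of 0.649 (0.445 to 0.964) and *Wnt5a* in mesothelial-like cells one of 0.623 (0.532 to 0.732), the latter on 7 ApcMin cells.

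Among the 12 other Wnt ligands, 3 had at least 50 UMIs over both libraries. *Wnt10b*, a canonical ligand, lay almost wholly in fibroblast-like cells, with 228 and 49 UMIs and a ratio of 0.239 (0.172 to 0.327), and in the adventitial-marker group it was at 25.6 and 15.1 CPM. *Wnt6* was highest in glial or neuronal-like cells, at 35.9 CPM (11.6 to 83.7) and 44.6 CPM (32.3 to 60.1). Another 72 ApcMin UMIs, 62 of them in a single cell, lay in the myeloid-like cluster, but all 72 in the cells that the finer clustering placed with epithelial-like cells. *Wnt16* had 9 and 41 UMIs in fibroblast-like cells, a ratio of 5.07 (2.43 to 11.9), and 12 of its VApcMinL UMIs came from 1 cell. The finer *Wif1* cluster held 0 of these UMIs in ApcMin and 37 in VApcMinL, and telocyte-like cells held 5 and 0.

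The rest of the pathway was described in the pooled fibroblast-like cells by the same fold of 2, which 6.96% of all genes tested there passed. These ratios were not weighted for the make-up of the cells. Of the 16 receptor genes tested, *Fzd6* alone was past it, in the direction of VApcMinL, with 17 and 37 UMIs. None of the 3 R-spondin genes tested and neither *Wls* (169 and 147 CPM) nor *Porcn* (7.78 and 10.8 CPM) was. Of the 9 secreted or surface inhibitors tested, *Wif1*, *Notum* and *Frzb* were past it towards VApcMinL and *Sfrp4* towards ApcMin. *Notum*, an enzyme that removes the lipid from Wnt ligands, had 109 and 331 UMIs, a ratio of 3.38 (2.71 to 4.23), and *Wif1* had 12 and 1712. *Frzb*, a secreted Wnt-binding protein, had 282 and 687 UMIs, a ratio of 2.71 (2.36 to 3.12), and the related *Sfrp4* had 648 and 187, a ratio of 0.321 (0.271 to 0.378). *Frzb* was highest in *Adamdec1* fibroblast-like cells (59.3 CPM in VApcMinL) and *Sfrp4* in the *Pi16* *Has1* cluster (34.1 CPM in ApcMin). The numbers of these cells differed between the libraries, and the part of this in the ratios was not tested. In VApcMinL 95.4% of the *Wif1* and 83.4% of the *Notum* UMIs, but 1.02% of the *Frzb* UMIs, lay in the finer *Wif1* cluster. In ApcMin that cluster held 4 of the 12 *Wif1*, 23 of the 109 *Notum* and 0 of the 282 *Frzb* UMIs. Among the 18 clusters, *Notum* was highest in the *Scg2* *Thbs2* cluster of ApcMin (43.9 CPM). The ratio of *Notum* without the finer *Wif1* cluster was not computed. Of the 10 feedback genes and Tcf factors tested, *Lgr5*, with 21 and 42 UMIs, was past the fold. The median log2 ratio was 0.46 for the inhibitors tested, 0.25 for the feedback genes, 0.12 for the 10 ligands tested, 0.073 for the receptors and -0.15 for the R-spondins.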

How the data were processed

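Single-cell RNA from sorted lamina propria cells of 2 genotypes was measured with the Chromium 3′ platform, 1 library each. The authors aligned the reads and deposited raw UMI counts for all 6794880 barcodes of each library, without normalization or cell calling. The submitters' processing notes name Cell Ranger 2.1.1, Seurat 3.1.1 and GRCm38 (mm10), and the file header names Cell Ranger 3.1.0. The members and the lists were chosen with earlier results of these data known.

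Barcodes with at least 3000 UMIs and at most 20% mitochondrial UMIs were kept, 6599 and 6569. Doublet scores came from Scrublet in scanpy 1.11.5, whose own threshold marked 0 and 1 cells and so did not work. The highest scores were therefore left out at 0.8% per 1000 cells, 348 and 345 cells. Counts were scaled to 10000 per cell and log-transformed, integrated and clustered with Seurat 5.3.0 in R 4.3.3 as in the study's methods (1577 anchor genes, 20 dimensions, 20 neighbours, Louvain resolution 0.2), without 68 Wnt pathway genes. A resolution of 0.8 gave the finer clusters. Clusters were named from 169 marker genes in 21 lists. The naming rule was set after the clusters were seen, and the study may have divided its cells otherwise.

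UMIs were summed per cluster and library. CPM has exact Poisson, shares exact Clopper-Pearson and ratios exact conditional binomial intervals (95%). With 1 library per genotype no test was made. Beside a count of 0 the level that 3 counts would give is printed. A ratio counts as past the fold when it is at least 2 in either direction, its interval leaves out 1 and the gene has at least 50 UMIs. Free RNA was estimated from barcodes of ranks 45000 to 90000, scaled by the smaller of an immunoglobulin and a hemoglobin estimate. For shares of cells with a UMI, each cell was thinned to 3000 UMIs, and no cell was shallower. Named genes were the 7 members, other Wnt ligands with at least 50 UMIs, the 3 genes most like each member among those with at least 200 UMIs, and pathway genes with at least 200 UMIs past the fold, while *Fzd6*, *Lgr5* and the genes of the myeloid split were named after their values were seen. The calculations were tested on simulated data. Positions are from GENCODE vM21 (GRCm38). Other software was anndata 0.12.19, pandas 2.3.3, scipy 1.17.1 and numpy 2.4.6 under Python 3.11.15.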

Additional observations from a re-analysis of the deposited data

How the results depend on the processing

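Each ratio in fibroblast-like cells was computed under 12 alternatives and each share of UMIs in fibroblast-like clusters under 8 per library. No paired analysis was possible because the genotypes have a single library each. Of the 84 ratios under alternatives, 76 stayed within the counting interval of the reported value, and of the 112 shares 95 did. With the clusters weighted alike the ratio was 0.794 for *Wnt2b*, on the other side of 1, 1.21 for *Wnt4*, 0.788 for *Wnt5a* and 1.21 for *Wnt11*. With cells thinned to 3000 UMIs it was 1.38 for *Wnt2b*, 1.83 for *Wnt4* and 0.779 for *Wnt11*. Without the 10 cells of most UMIs in each library, an alternative chosen after the data were seen, it was 2.42 for *Wnt4*. In the myeloid-like cluster the *Wnt4* ratio moved from 0.357 to 0.481 without its finer epithelial-like cells, likewise chosen after the data were seen. In fibroblast-like cells the ratio of *Wnt4* stayed past the fold of 2 in 8 of 12 alternatives (1.21 to 2.42) and that of *Wnt2* in 7 of 12 (0.336 to 0.618).

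Among barcodes with at least 500 genes, classed by their own markers, the ApcMin share in fibroblast-like cells was 93.9% for *Wnt2b*, 62.3% for *Wnt4*, 92.1% for *Wnt5a*, 94.1% for *Wnt5b*, 94.5% for *Wnt9a* and 93.5% for *Wnt11*, and the VApcMinL share 80.7% for *Wnt4* and 88.1% for *Wnt5a*. With the main cells classed by their own markers the ApcMin share was 94.1% for *Wnt2b*, 92.0% for *Wnt5a*, 94.4% for *Wnt5b*, 95.5% for *Wnt9a* and 93.5% for *Wnt11*. With at least 6000 UMIs it was 68.4% for *Wnt4* in ApcMin and 94.4% for *Wnt9a* in VApcMinL. The VApcMinL share of *Wnt4* was 89.8% with at most 10% mitochondrial UMIs and 90.6% without epithelial-like and erythroid-like cells, the latter chosen after the data were seen. Apart from the weighting, whose construction sets the difference, the cause of these shifts was not tested. The thinning was a single random draw, and its own error was not estimated. Taking off the estimated free RNA, keeping doublets and the finer resolution left every ratio and share inside its interval. Depth limits *Wnt2* most, with 115 UMIs in all fibroblast-like cells.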

Other observations

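Receptors and R-spondins, which receive or amplify the ligands' signal, were highest partly in the clusters of the ligands and partly elsewhere, by the highest CPM over clusters with at least 20 cells in a library. *Fzd4*, the receptor also bound by norrin, was highest in blood endothelial-like cells (342 CPM in ApcMin), *Fzd6* in lymphatic endothelial-like cells (97.1 CPM in ApcMin) and *Fzd5* in epithelial-like cells (117 CPM in VApcMinL). *Fzd1* was highest in *Adamdec1* fibroblast-like cells (342 CPM in ApcMin) and *Fzd2* in telocyte-like cells (407 CPM in VApcMinL). *Rspo3* was highest in the lymphatic endothelial-like cells that also held *Wnt2* (334 CPM in ApcMin), *Rspo1* in the mesothelial-like cells that had the highest *Wnt5a* level (809 CPM of *Rspo1* in VApcMinL) and *Rspo2* in trophocyte-like cells (35.7 CPM in ApcMin). These genes were named after their values were seen.

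*Wls*, the carrier of Wnt ligands, was found across the stroma and not only in the clusters where single ligands were highest. It stood at 400 and 254 CPM in mesothelial-like, 343 and 173 CPM in telocyte-like, 162 and 133 CPM in lymphatic endothelial-like and 62.8 and 49.1 CPM in the *C1qa* group of myeloid-like cells, against 0.480 and 0.352 CPM in erythroid-like cells. Over all fibroblast-like cells *Wls* was at 169 and 147 CPM. The unnamed cluster led by *Myh11* and *Notch3*, with few ligand UMIs, had 185 and 146 CPM, and glial or neuronal-like cells had 136 and 106 CPM.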
